A study of Homo sapiens with 4 samples.

Results

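The values described here belong to transcript clusters, the units of an exon array, that the platform annotation assigns to several genes at once. A cluster was a member if its gene symbol field held 2 or more symbols. Of the 17881 clusters in the deposited table, 2408 were members, 14432 had 1 symbol and 1041 had none. Each member is written with all its symbols joined by a slash, such as HSPA1A/HSPA1B, and its value cannot be assigned to any of those genes alone. RNA came from cells labelled HepG2, the name of a hepatocellular carcinoma line whose markers were in part absent here as given below, and K562, an erythroleukaemia-like line from a patient with chronic myeloid leukaemia. The study asked how ADAR, which edits adenosines of double-stranded RNA to inosines, acts on alternative splicing; the values here are its gene-level signals. Cells of each line carried a stably transfected plasmid with an siRNA against ADAR1 (ADARkd) or with a scrambled siRNA (SCR), so the 4 groups were HepG2 SCR, HepG2 ADARkd, K562 SCR and K562 ADARkd, with 1 array each. HepG2 was grown in DMEM and K562 in RPMI 1640, and the siRNA was the most effective of several tried. The sources used here do not give whether the transfected cells were clones or pools.

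An exon array reads a transcript through many short probes, each placed in an exon, and a transcript cluster groups the probes of overlapping transcripts into a gene-level value. A cluster can carry several symbols because genes overlap on the genome, because a small RNA lies inside an intron of its host gene, because a readthrough transcript joins neighbours, or because recently duplicated genes are so alike that a probe binds the RNA of each of them. Heat shock proteins, aldo-keto reductases, globins and zinc fingers are such duplicated families, and clusters of microRNAs and small nucleolar RNAs are usually processed from a longer host transcript.

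A pair of duplicated gene pairs shows how alike the genes of a member can be. HSPA1A and HSPA1B encode the stress-inducible Hsp70 chaperone, and 2 members carried exactly these symbols. The 250 bases before their start sites are printed here because both members had among the lowest ADARkd signals relative to SCR on the HepG2 arrays. In RefSeq on GRCh38.p14 the windows were chr6:31815293-31815542 and chr6:31827488-31827737, both on the plus strand. They were identical at 235 of 251 aligned positions, or 93.6%. Capitals mark GAANNTTC, an inverted pair of the half-sites that heat shock factor is known to bind, searched on both strands; it was in 5.80% of the 34788 windows of this length in the RefSeq table, and also once in each of the AKR1C1 and AKR1C2 windows printed next, where it is not capitalised.
HSPA1A: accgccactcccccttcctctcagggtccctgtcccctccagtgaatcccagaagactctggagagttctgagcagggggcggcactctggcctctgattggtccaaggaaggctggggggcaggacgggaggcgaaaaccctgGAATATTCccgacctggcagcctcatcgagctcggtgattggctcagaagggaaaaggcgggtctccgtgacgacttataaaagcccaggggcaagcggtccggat
HSPA1B: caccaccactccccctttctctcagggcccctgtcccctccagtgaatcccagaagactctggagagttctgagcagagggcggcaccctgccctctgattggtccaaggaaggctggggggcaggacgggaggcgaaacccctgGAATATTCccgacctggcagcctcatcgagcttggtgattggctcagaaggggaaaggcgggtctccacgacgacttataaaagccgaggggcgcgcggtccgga

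AKR1C1 and AKR1C2 encode aldo-keto reductases that act on steroids and reactive carbonyls, and their members were also low in HepG2 ADARkd. Their windows were chr10:4963165-4963414 on the plus strand and chr10:5003858-5004107 on the minus strand, identical at 245 of 254 aligned positions, or 96.5%. Capitals mark CCAAT, here on the opposite strand as ATTGG; either orientation was in 32.0% of the 34788 windows. A match describes letters and shows no binding.
AKR1C1: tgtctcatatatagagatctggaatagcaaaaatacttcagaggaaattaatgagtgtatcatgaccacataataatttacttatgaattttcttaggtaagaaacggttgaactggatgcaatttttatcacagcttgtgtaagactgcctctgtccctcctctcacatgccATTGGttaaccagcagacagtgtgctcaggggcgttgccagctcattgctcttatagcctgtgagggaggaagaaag
AKR1C2: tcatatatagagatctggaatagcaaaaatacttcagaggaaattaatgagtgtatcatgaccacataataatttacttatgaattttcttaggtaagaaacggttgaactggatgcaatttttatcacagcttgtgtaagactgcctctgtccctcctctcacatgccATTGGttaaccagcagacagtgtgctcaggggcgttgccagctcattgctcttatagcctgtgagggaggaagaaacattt

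The host clusters of microRNAs are members of another kind, and the sequences below belong to such clusters that differed between the lines. A cluster counted as a host if it carried a small RNA symbol, so the small RNA need not lie inside the other gene. MIR17HG, the host of the miR-17-92 group on chromosome 13 of GRCh38.p14, shared its cluster with 6 microRNAs. Capitals mark the seed, bases 2 to 8, which pairs with target transcripts. The seed was shared by miR-17-5p and miR-20a-5p, and by miR-19a-3p and miR-19b-3p.
hsa-miR-17-5p: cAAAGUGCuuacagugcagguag
hsa-miR-20a-5p: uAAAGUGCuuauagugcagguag
hsa-miR-18a-5p: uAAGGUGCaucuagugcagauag
hsa-miR-19a-3p: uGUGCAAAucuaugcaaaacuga
hsa-miR-19b-3p: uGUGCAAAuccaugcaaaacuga
hsa-miR-92a-3p: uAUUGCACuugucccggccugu

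The other microRNAs printed are miR-15a and miR-16, which share a seed and are carried by DLEU2, and those of 3 more clusters. These clusters were annotated to PPIL2, EGFL7 and SLC12A3 and also carried MIR130B, MIR126 and MIR138-2. The array measured the cluster and not the mature microRNA.
hsa-miR-15a-5p: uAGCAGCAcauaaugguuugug
hsa-miR-16-5p: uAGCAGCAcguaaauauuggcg
hsa-miR-130b-3p: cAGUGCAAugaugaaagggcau
hsa-miR-126-3p: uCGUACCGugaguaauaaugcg
hsa-miR-138-5p: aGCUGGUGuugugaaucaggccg

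The 2408 members held 4575 different symbols, and 3801 of these (83.1%) were in no single-symbol cluster, so the members are where the table holds those genes. There were 1956 members with 2 symbols, 296 with 3, 93 with 4 and 63 with 5 or more. The most symbols, 15, were in a cluster of the protocadherin alpha genes, whose transcripts share their last exons. By gene names and RefSeq gene type, 1044 members were other pairs or sets of protein-coding genes, as in PSMD14/MXRA7. These took in related genes whose names begin with fewer than 3 letters, such as olfactory receptors. In 430, called same-family names, all symbols shared a root of at least 3 letters, as in AKR1C2/AKR1C1. A pseudogene was present in 415, as in USP6/USP32P2/USP32P1. Another 229 had a long non-coding or antisense partner, and 198 carried a small RNA symbol and are called small RNA hosts. An unplaced name was in 61 and a readthrough name in 31. In the RefSeq placement on GRCh38.p14 the genes of 779 members overlapped, those of 585 were at most 2 genes apart, those of 634 were on the same chromosome but farther apart, and those of 379 were on several chromosomes; 31 could not be placed.

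The term kept is used for a cluster whose mean log2 value in a line reached the table's median there, 5.19 in HepG2 and 5.21 in K562. Of the 2408 members, 1004 were kept in both lines, 135 in HepG2 alone, 160 in K562 alone and 1109 in neither. The share kept was 47.3% of members in HepG2 and 48.3% in K562, against 51.3% and 51.0% of single-symbol clusters. It was highest for small RNA hosts, at 76.8% and 75.8%, and lowest for same-family names, at 25.8% and 28.8%. In HepG2 it was 49.3% of members with 2 symbols, 41.6% with 3, 38.7% with 4 and 25.4% with 5 or more. Signal depends on a cluster's own probes, so these shares describe the array's signals and not the abundance of the RNAs.

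**Figure D1:**
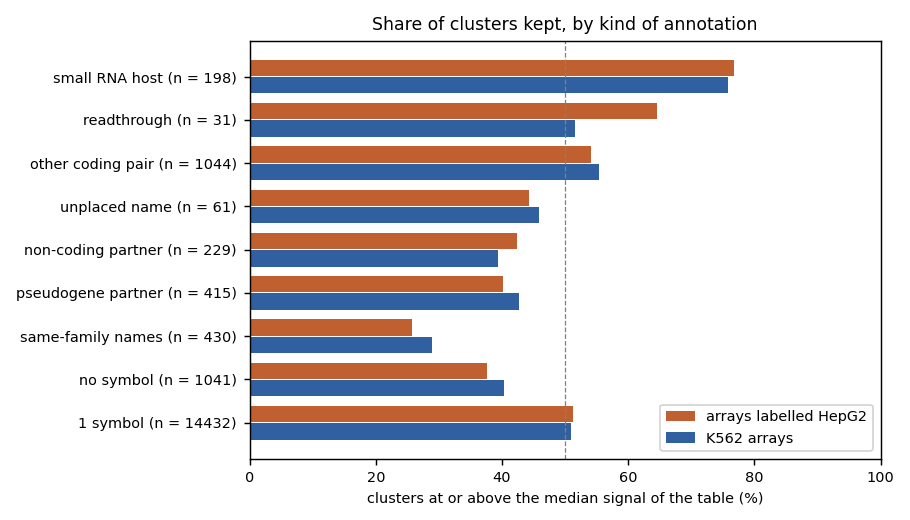
Percent of clusters kept in each line (bars, arrays labelled HepG2 and K562), by kind of annotation, with the number of clusters in brackets and a dashed line at 50%. Small RNA hosts were kept in over 75% in both lines and same-family names in under 30%.

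Median intensity was between 36.1 and 37.0 on the 4 arrays, and their number limits the precision. The single-symbol ADAR cluster read 8.96 in SCR and 7.27 in ADARkd on the HepG2 arrays, 3.23-fold lower, and 7.99 and 6.78 on the K562 arrays, 2.32-fold lower. Of 6 erythroid markers measured, 6 were kept in K562 and 0 in HepG2, while 0 of 3 lymphocyte markers were kept in either line. Of 7 hepatocyte markers measured, 2 were kept on the HepG2 arrays, CPS1 and FOXA1, and 1 in K562, FOXA1. Levels of the list were from 2.23 to 10.73 in HepG2 and from 2.83 to 5.58 in K562. Of 8 fibroblast and stromal markers, 6 were kept in HepG2 and 0 in K562, with levels from 4.25 to 9.63 in HepG2 and from 3.11 to 4.95 in K562. The 7 members of the glucuronosyltransferases, liver enzymes that conjugate bilirubin and drugs, were kept in neither line. The arrays are therefore called by their label, HepG2, and the part of these markers in any difference between the lines was not tested.

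On the arrays labelled HepG2, Hsp70, aldo-keto reductase and golgin clusters and the alkaline phosphatase cluster ALPI/ALPP were among those lowest in ADARkd. The histone cluster H2BC12/H2BC12L and those of ornithine decarboxylase and nucleolin were among those highest. Of the 1139 members kept in HepG2, 30 (2.63%) differed by 2-fold or more between ADARkd and SCR, with 13 of them higher and 17 lower. Over all 8941 kept clusters the share was 3.89%, with 2.21% higher and 1.68% lower. With no filter, 57 of 2408 members and 2.90% of all clusters differed by that much. The median difference was 0.06 over kept members and 0.09 over all kept clusters. Each arm was a single array, so these are differences between 2 arrays with no replicate error and no p-value. The split depended on scaling: higher clusters were 43.3% of these members as deposited and 33.3% after quantile or cyclic loess normalization, while over all kept clusters the share was 56.9% as deposited, 44.0% and 45.5%.

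The pair of Hsp70 members stood far apart on the HepG2 arrays. The brighter HSPA1A/HSPA1B cluster read 9.87 in SCR and 7.41 in ADARkd, a log2 difference of -2.45 (5.48-fold lower). The same cluster read 10.13 and 9.95 in K562. The dimmer cluster with the same symbols read 7.63 and 5.90 in HepG2, a difference of -1.73, and 8.05 and 7.87 in K562. In both clusters the HepG2 ADARkd array was the low sample, and the remaining arrays lay close together above it.

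Both kept aldo-keto reductase members with AKR1C symbols were lower in ADARkd on the HepG2 arrays. AKR1C1/AKR1C2/AKR1C3 read 8.80 in SCR and 7.25 in ADARkd, a difference of -1.56. AKR1C2/AKR1C1 read 6.40 and 4.96, a difference of -1.44. In K562 the differences were -0.12 and -0.08. AKR1C4/AKR1C3, kept in neither line, read 2.53 and 2.33 in HepG2, a difference of -0.20. A cluster annotated to AKR1C3 alone, which makes prostaglandin F and androgens, read 7.62 and 6.88 in HepG2, a difference of -0.74, so it was lower in ADARkd by less.

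A member of the alkaline phosphatases, ALPI/ALPP, and the golgin members were low as well. MAMDC2/RPL24, which joins a matrix protein gene and a ribosomal protein gene on different chromosomes, read 8.38 in SCR and 5.08 in ADARkd, 9.82-fold lower and the largest difference among kept members. In K562 it read 3.42 and 3.55, below the filter. ALPI/ALPP, the intestinal and placental alkaline phosphatases, read 9.51 and 7.82, a difference of -1.69. The pair of clusters annotated to ALPP and ALPG went the other way, at 0.49 and 0.64, so clusters sharing the ALPP symbol differed in direction. GOLGA8A/GOLGA8B, golgins of a duplicated region, read 9.21 and 7.61, a difference of -1.59, and the second cluster with these symbols differed by -0.82.

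USP6/USP32P2/USP32P1, which holds a ubiquitin protease of hominoid origin and pseudogenes of USP32, read 8.20 in SCR and 6.51 in ADARkd in HepG2, against 7.38 and 7.44 in K562. CCDC144BP/CCDC144A/CCDC144CP/USP32P2 shares a pseudogene symbol with it and read 7.20 and 5.43, a difference of -1.77. In K562 that cluster was higher in ADARkd, at 5.03 and 5.81. The remaining low members were PPP1R3E/HOMEZ, SNHG32/SNORD52, AMN1/ETFBKMT, MSH5/SAPCD1, DSEL/DSEL-AS1, SLC2A3/SLC2A14, SVIL/MIR604 and ANKRD36B/ANKRD36/ANKRD36BP2, with differences from -1.30 to -1.01. A second cluster with the SLC2A3 and SLC2A14 symbols, also kept, differed by only -0.14. A second AMN1/ETFBKMT cluster, not kept, differed by -0.50. SLC2A3 encodes the neuronal-type glucose transporter GLUT3, MSH5 a meiotic crossover protein and SVIL the actin-binding supervillin.

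Among kept members higher in HepG2 ADARkd, H2BC12/H2BC12L, a histone H2B gene and its relative, had the largest difference. It read 7.96 in SCR and 9.39 in ADARkd, a difference of 1.43 (2.69-fold higher), and 10.28 and 10.41 in K562. AMOTL2/RPL39P5, whose coding gene is an angiomotin that binds YAP, read 6.0 and 7.33. ODC1/SNORA80B, the rate-limiting enzyme of polyamine synthesis with a small nucleolar RNA in its intron, read 9.33 and 10.37. NCL/SNORD20/SNORA75/SNORD82, the nucleolar protein nucleolin and its intronic RNAs, read 7.91 and 8.93.

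The high members also held pairs of coding genes with unlike names, of which PSMD14/MXRA7 and NXT2/MFN1 join genes on different chromosomes. PSMD14/MXRA7, with a deubiquitinase of the proteasome lid, read 8.30 in SCR and 9.46 in ADARkd. NXT2/MFN1, an RNA export factor and a mitochondrial fusion GTPase, read 4.99 and 6.29. A cluster annotated to MFN1 alone read 7.95 and 8.04, so the difference of 1.30 in the joint cluster was not seen in it. MRPS28/TPD52, a mitochondrial ribosomal protein and a tumour protein, read 6.34 and 7.46, while a cluster of TPD52 alone read 7.22 and 7.13. The other high members were GPR39/LYPD1, METTL2A/METTL2B, TIPIN/SCARNA14, PNO1/PPP3R1, ACAT2/SOD2-OT1 and RPF1/GNG5, with differences from 1.04 to 1.25. Second clusters of GPR39/LYPD1 and METTL2A/METTL2B, not kept, differed by 0.18 and -0.07. METTL2A and METTL2B are tRNA methyltransferases, TIPIN protects replication forks and ACAT2 makes acetoacetyl-CoA.

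**Figure D2:**
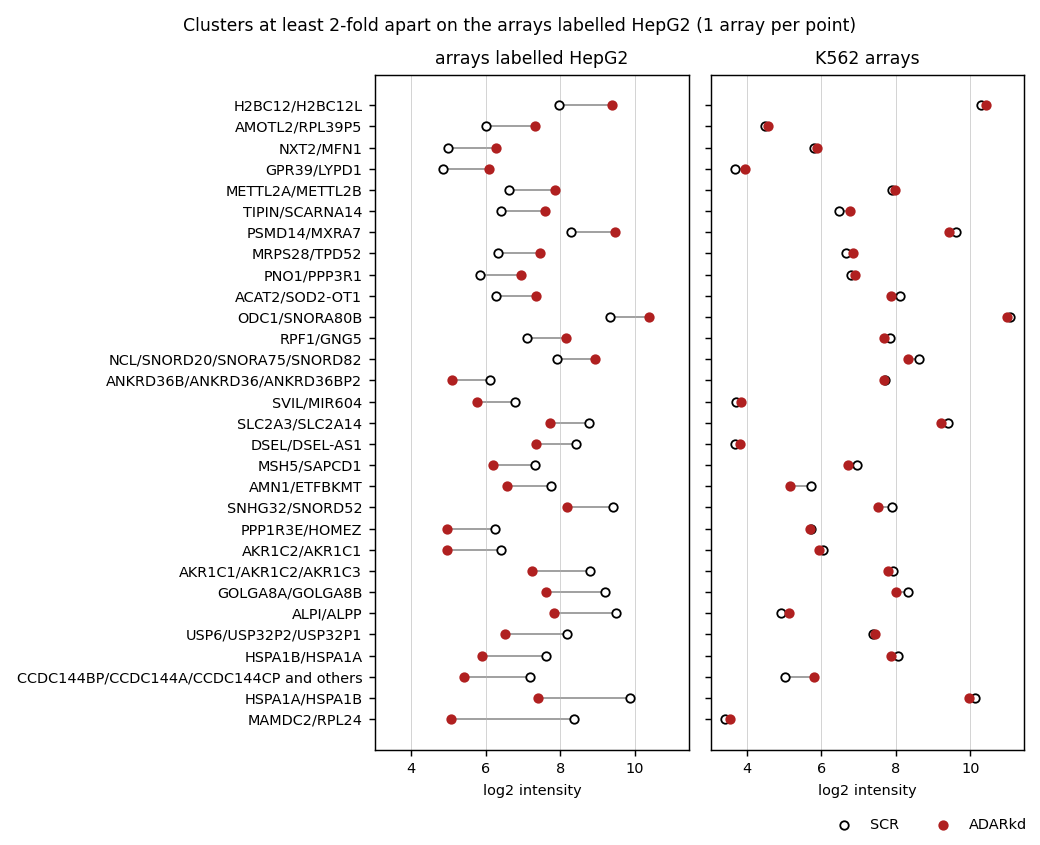
Log2 intensity of the 30 kept members at least 2-fold apart between SCR (open circles) and ADARkd (filled circles) on the arrays labelled HepG2 (left) and the same clusters on the K562 arrays (right), 1 array per point. The circles nearly coincide in K562 for most clusters, and MAMDC2/RPL24 has the widest gap in HepG2, from 8.38 to 5.08.

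In K562, few members differed between the arms. Of 1164 kept members, 4 (0.344%) differed by 2-fold or more, with 2 higher and 2 lower, against 0.190% of all 8941 kept clusters, of which 0.0559% were higher and 0.134% lower. With no filter on dim clusters, 16 of 2408 members were 2-fold apart, against 0.285% of all clusters. The median difference over kept members was -0.05 and over all kept clusters -0.07. STEAP1B/STEAP1, whose members include a metalloreductase of the cell surface, read 6.15 in SCR and 4.47 in ADARkd, a difference of -1.68. The second cluster with these symbols read 4.62 and 4.36 and was not kept, so the 2-fold difference was in the former alone.

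ERV3-1/ZNF117, an envelope gene of an endogenous retrovirus with a zinc finger gene in the same locus, read 7.27 in SCR and 6.20 in ADARkd in K562. MT1H/MT1HL1, metal-binding metallothioneins, read 5.17 and 6.35 there, against 5.68 and 5.42 in HepG2. HSD17B7P2/HSD17B7/DDR2/LINC01347/LOC100288069, which joins a cholesterol synthesis enzyme, its pseudogene and a collagen receptor, read 5.14 and 6.33. This cluster was below the filter in HepG2, where it read 5.79 and 3.45. CTRB2/CTRB1, digestive proteases of the pancreas, read 6.30 and 7.15 in K562, and PF4/PF4V1, platelet chemokines, read 5.14 and 5.99. On the low side SLC25A33/RPL9P11, a mitochondrial pyrimidine carrier with a pseudogene, read 7.30 and 6.42, and SEPTIN5/GP1BB, a platelet septin and a subunit of the von Willebrand factor receptor, read 5.98 and 5.14. Several of these clusters lay close to the filter level of 5.21 in the lower of their arms.

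Over both lines, limma found no member with a shared difference between ADARkd and SCR. At an adjusted p under 0.05, 0 of 1004 members kept in both lines were called, and 0% of all 7809 clusters kept in both lines. Unadjusted p-values were under 0.05 for 39 members and 249 of all clusters, and the lowest adjusted p from limma was 0.999 among members and 0.803 among all. The lines stand in for replicates here, with 1 residual degree of freedom. The members named next differed the same way in both lines, ranked by the smaller of their differences, and none passed the test.

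PRKRIP1/LINC03009/POM121/PMS2P3, which holds a splicing-associated protein and a nucleoporin, read 5.91 in SCR and 6.56 in ADARkd in HepG2, and 6.16 and 6.78 in K562. IFITM2/IFITM3, interferon-induced proteins that restrict virus entry, read 5.95 and 6.41, then 5.00 and 5.45. A second cluster with the IFITM2 and IFITM3 symbols, kept in neither line, differed by -0.54 in HepG2 and -0.12 in K562. HNRNPK/MIR7-1, an RNA-binding protein that hosts miR-7, read 7.87 and 8.20, then 7.85 and 8.43. The other members higher in ADARkd in both lines were CMC1/AZI2, CCDC174/TMEM135, ISCA1/C9orf153, RFPL2/RFPL3 and ZGLP1/FDX2, with fitted differences from 0.31 to 0.65.

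On the low side AMN1/ETFBKMT read 7.74 in SCR and 6.56 in ADARkd in HepG2, and 5.73 and 5.16 in K562. Its second cluster, kept in neither line, differed by -0.50 in HepG2 and 0.22 in K562. LCORL/NCAPG, whose second gene encodes a condensin subunit, read 5.76 and 4.84, then 5.83 and 5.36. A second cluster with these symbols differed by 0.02 in HepG2 and -0.29 in K562. TOMM20/SNORA14B, the import receptor of the outer mitochondrial membrane and an intronic RNA, read 8.25 and 7.70, then 7.01 and 6.54. SLF1/FASTKD1, RCN1/TPT1-AS1, PHOSPHO2/KLHL23, DIPK1A/RPL5 and PCMTD1/PXDNL were the other low members, with fitted differences from -0.66 to -0.49.

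**Figure D3:**
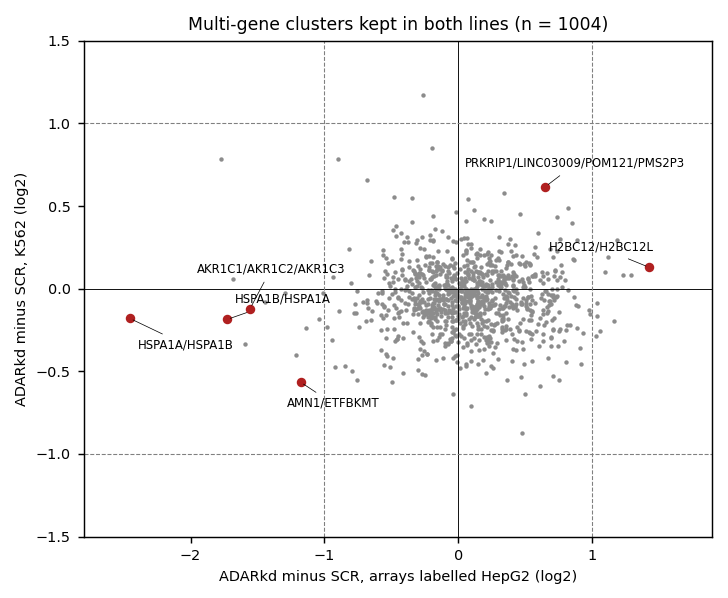
Log2 difference, ADARkd minus SCR, of the 1004 members kept in both lines, on the arrays labelled HepG2 (x axis) and in K562 (y axis), 1 point per cluster, with dashed lines at 2-fold and named clusters in red. The points spread farther along the HepG2 axis, where HSPA1A/HSPA1B lies at -2.45, while only MT1H/MT1HL1, unlabelled at 1.17, passes 2-fold on the K562 axis.

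Between the lines, many more members differed. Both globin clusters and 25 of 96 zinc finger clusters were higher in K562, as were FCGR2A/FCGR2C and PRAME/PRAMENP. CXADR/CXADRP2/BTG3, ALPP/ALPG, ITGA1/PELO and HLA-B/HLA-C were higher in HepG2. With limma, 378 of 2408 members (15.7%) were called at an adjusted p under 0.05 and at least 2-fold, 217 higher and 161 lower in K562. Over all 17881 clusters 16% were called, 7.18% higher and 8.79% lower. Higher clusters were 57.4% of the called members and 45.0% of all calls. After cyclic loess normalization the members called were 170 higher and 191 lower, or 47.1% higher, and 37.3% of all calls were higher; the median difference of all clusters moved from 0.21 to 0.01. Each line had 2 arrays, the SCR and ADARkd ones. The fit removed the mean arm difference, so its residual was how far the arm difference was unlike in the 2 lines. The limma error combined this residual with a variance estimated over all clusters, so the p-values do not measure replicate spread within a line.

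By kind of annotation, whose counts were not tested against each other, calls were as follows. Of 430 same-family members 46 were higher and 22 lower in K562, and of 415 with a pseudogene 40 were higher and 23 lower. Of 1044 other coding pairs 88 were higher and 64 lower, of 198 small RNA hosts 15 and 18, and of 229 with a non-coding partner 19 and 27. After cyclic loess normalization the counts were 32 and 29 for same-family members, 32 and 29 for those with a pseudogene, and 71 and 79 for other coding pairs, so the balance of higher and lower calls depended on scaling.

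The largest difference was in the globins. HBE1/OR51B5/HBG2, with the embryonic epsilon and a fetal gamma globin and an olfactory receptor gene of the same locus, read 3.22 and 3.39 on the HepG2 SCR and ADARkd arrays and 8.79 and 8.98 on those of K562. The fitted difference was 5.59 ± 0.21 (SE), 48.0-fold, with an adjusted p of 1.39e-08. HBD/HBB, the adult delta and beta globins, read 2.35 and 2.75 in HepG2 and 6.02 and 6.31 in K562, a difference of 3.62 ± 0.19. Both clusters were among the largest calls, so the lack of overlap between their groups is no separate result.

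Other members with large differences were also higher in K562. FCGR2A/FCGR2C, low-affinity receptors for immunoglobulin G, read 3.02 and 3.18 in HepG2 and 7.84 and 7.50 in K562. PRAME/PRAMENP, an antigen of melanoma and leukaemia with its pseudogene, read 7.22 and 7.04, then 11.10 and 11.04. RHOXF2/RHOXF2B, homeobox genes of the testis, read 4.03 and 4.34, then 8.67 and 8.81. MEIOB/FAHD1, whose first gene acts in meiotic recombination, read 3.07 and 3.16, then 7.43 and 7.28. CLIC2/TWF1, RFESD/SPATA9, GLIPR1/KRR1, ZNF429/LINC00664 and FBXO17/SARS2 had differences from 3.51 to 5.01. These clusters were chosen for their large called differences, so both K562 arrays lying above both HepG2 arrays is no separate result.

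On the other side CXADR/CXADRP2/BTG3, with the coxsackievirus and adenovirus receptor of cell junctions, read 8.08 and 8.53 in HepG2 and 2.88 and 2.60 in K562, a difference of -5.57 ± 0.23 (SE) with an adjusted limma p of 2.22e-08. ALPP/ALPG, placental-type alkaline phosphatases, read 8.94 and 9.43, then 3.94 and 3.90, a difference of -5.26 ± 0.23. ALPI/ALPP and the second ALPP and ALPG cluster were lower in K562 too, at -3.64 and -2.35. BICC1/FAM133B/FAM133DP/FAM133CP, with an RNA-binding protein of polarised epithelia, read 7.63 and 7.95, then 2.89 and 2.95.

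ITGA1/PELO, a collagen-binding integrin and a ribosome rescue factor encoded within it, read 8.04 and 7.16 in HepG2 and 3.58 and 3.80 in K562. CASP4/CASP4LP, an inflammatory caspase, read 7.60 and 8.46, then 3.75 and 3.87. SLFN11/SLFN13, which act on replication stress and transfer RNA, read 7.19 and 6.94, then 3.13 and 3.47. HLA-B/HLA-C, classical class I antigen-presenting molecules, read 9.94 and 9.38, then 6.28 and 6.10, a difference of -3.47 ± 0.22. TMEM120B/RHOF, CA5B/CA5BP1, DSEL/DSEL-AS1, FOCAD/HACD4, PRSS23/FZD4 and LGALS8/HEATR1 had differences from -4.23 to -3.67. These genes encode, among others, a mitochondrial carbonic anhydrase (CA5B), a Wnt receptor (FZD4) and a galectin (LGALS8).

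**Figure D4:**
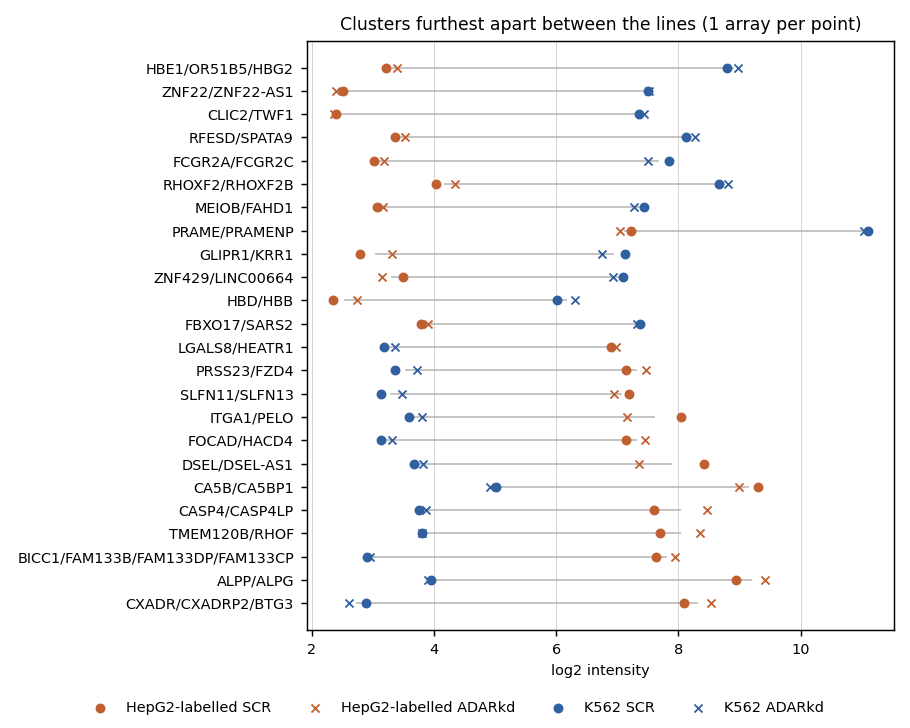
Log2 intensity on each of the 4 arrays for the 12 members highest in K562 and the 12 lowest, among those called between the lines (circles SCR, crosses ADARkd, grey lines join the line means). The 24 clusters were chosen for large differences, so the separation of the lines follows from the choice. HBE1/OR51B5/HBG2 spans 3.22 to 8.98.

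By family, zinc finger members had the most calls. Zinc finger proteins bind DNA, many of them silence transposable elements through KRAB domains, and many of their genes lie in large arrays of duplicates. Of 96 members with several symbols that begin with ZNF, 25 were higher in K562 and 6 lower, against 7.18% and 8.79% of all clusters. These shares of all clusters also stand beside the counts of the lists that follow, which were not tested against them. An antisense RNA named after a zinc finger gene counted as such a symbol, as in ZNF22/ZNF22-AS1. After quantile normalization the counts were 20 and 8, after cyclic loess normalization 18 and 8. Of 317 single-symbol ZNF clusters, 50 were higher and 14 lower as deposited. ZNF22/ZNF22-AS1 read 2.50 and 2.40 in HepG2 and 7.50 and 7.52 in K562, a difference of 5.06 ± 0.20. ZNF100/ZNF430 had a difference of 2.86 ± 0.19, ZNF658/ZNF658B 2.67 ± 0.25 and ZNF595/ZNF876P 2.65 ± 0.19. ZNF302/ZNF181 went the other way, reading 6.92 and 7.35 in HepG2 and 4.44 and 4.76 in K562. The median difference was 0.41 over the 96 members, 0.24 over the 317 single-symbol clusters and 0.21 over all clusters.

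Host clusters of microRNAs were called in both directions, 11 higher and 12 lower in K562 of 113. PPIL2/MIR130B, a cyclophilin of the spliceosome and a microRNA annotated with it, read 6.16 and 6.59 in HepG2 and 8.78 and 8.72 in K562, a difference of 2.37 ± 0.22. EGFL7/MIR126, an endothelial growth factor-like gene and the host of miR-126, read 4.98 and 5.13, then 6.82 and 6.77. The MIR17HG cluster, whose 6 microRNAs are printed above, read 5.23 and 5.09, then 6.43 and 6.48, a difference of 1.29 ± 0.21. DLEU2/MIR15A/MIR16-1/DLEU2L read 4.76 and 5.41, then 6.38 and 6.12. HOXB4/MIR10A was higher in K562 by 1.19 ± 0.20, while HOXB7/MIR196A1, of the same homeobox cluster, was lower, at -1.03 ± 0.21.

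Among hosts lower in K562, SLC12A3/MIR138-2, the thiazide-sensitive salt transporter beside miR-138, read 8.38 and 9.06 in HepG2 and 5.10 and 5.25 in K562, a difference of -3.54 ± 0.23. LAMB3/MIR4260, a laminin chain of epithelial basement membranes, had a difference of -2.78 ± 0.21 and SVIL/MIR604 -2.50 ± 0.26. HUWE1/MIR98/MIRLET7F2, a ubiquitin ligase hosting let-7 family members, read 9.18 and 9.52, then 8.30 and 8.24. In HepG2 the ADARkd and SCR arrays of SVIL/MIR604 differed by -1.03, and it was the sole kept microRNA host of 76 at least 2-fold apart there. This is 1.32% of them, against 3.89% of all kept clusters.

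Small nucleolar RNA hosts, many of which are genes of ribosome biogenesis and translation, were mostly kept: 78 of 87 in HepG2 and 79 in K562. Between the lines 4 were higher and 5 lower in K562, and the median difference was -0.01 against 0.21 over all clusters. After quantile normalization these medians were 0.03 and 0.08, and after cyclic loess normalization -0.06 and 0.01. The size of this gap therefore depended on scaling. ODC1/SNORA80B was higher in K562, reading 11.07 and 10.98, as was EEF1B2/SNORD51/SNORA41, an elongation factor subunit, at 1.17 ± 0.24. COBLL1/SNORA70F and SLC47A1/SNORA59A/SNORA59B, a drug exporter, were lower, at -1.86 ± 0.19 and -1.79 ± 0.20. In HepG2, 4 of the 78 kept hosts (5.13%) were at least 2-fold apart between the arms, against 3.89% of all kept clusters. Of these, NCL/SNORD20/SNORA75/SNORD82, ODC1/SNORA80B and TIPIN/SCARNA14 were higher in ADARkd and SNHG32/SNORD52 lower. SNHG32/SNORD52 read 9.41 and 8.19 in HepG2 and 7.91 and 7.51 in K562.

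Histone members, the replication-dependent proteins of nucleosomes, were few. Of 5, H2BC12/H2BC12L and H2BC18/H3C13/H2BP1 were higher in K562, at 1.67 ± 0.27 and 1.34 ± 0.24, and H3C4/H2AC7 did not pass, at -0.43 ± 0.21; 1 member of the list was called lower after quantile or cyclic loess normalization. In HepG2 the arms of H2BC12/H2BC12L and H2BC18/H3C13/H2BP1 differed in opposite directions, at 1.43 and -0.64, the latter cluster not being kept there. Of 16 cancer-testis members, 3 (18.8%) were higher in K562 and 0 lower. After cyclic loess normalization 2 were higher, and with log2(value + 16) 1 was. SSX8P/SSX1/SSX5 read 7.17 and 6.68 in HepG2 and 7.87 and 8.04 in K562, and MAGEA12/MAGEA2/MAGEA2B read 4.24 and 4.21, then 5.82 and 5.86. CSAG1/CSAG3/CSAG2 was called at 1.77 ± 0.23 but kept in neither line.

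Of 7 heat shock members, the 2 HSPA1A/HSPA1B clusters were called higher in K562, at 1.40 ± 0.39 and 1.20 ± 0.31, and the other 5 did not pass. The called difference moves with the HepG2 ADARkd array, since the SCR arrays of the lines read 9.87 against 10.13 and 7.63 against 8.05. It held for 1 of these clusters after quantile normalization and for neither after cyclic loess normalization. HSP90AB1/HSP90AB3P, the constitutive cytosolic Hsp90 and a pseudogene, read 12.15 and 11.89 in HepG2 and 12.31 and 12.38 in K562, a difference of 0.32 ± 0.14. HSP90B1/HSP90B3P, its counterpart in the endoplasmic reticulum, read 11.17 and 11.10, then 11.40 and 11.26, a difference of 0.20 ± 0.15. DNAJC25/DNAJC25-GNG10/GNG10/LOC100289060, a readthrough locus of a J-domain protein, had 1.0 ± 0.22, just under the 2-fold bound.

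Of 16 chemokine, interferon and APOBEC3 members, 2 were called, both carrying APOBEC3D and APOBEC3F, cytidine deaminases that restrict retroelements, at 1.53 ± 0.21 and 1.19 ± 0.19 higher in K562; after cyclic loess normalization 1 member was called each way. APOBEC3B/APOBEC3A/APOBEC3F read 6.91 in SCR and 7.90 in ADARkd in HepG2, a difference of 0.99, and 8.17 and 8.02 in K562. Of 14 glutathione transferase and metallothionein members, GSTM1/GSTM2, detoxifying enzymes, was lower in K562 at -2.04 ± 0.21 and MT1IP/MT1X higher at 1.04 ± 0.18, a call absent after quantile or cyclic loess normalization. MT1H/MT1F read 5.32 and 3.78 in HepG2, a difference of -1.54, and was not kept there. Of 8 tubulin and actin members, TUBB2A/TUBB2B and TUBA1A/TUBA1B were higher in K562, at 1.46 ± 0.20 and 1.23 ± 0.21.

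In the translation list, EEF1A1/EEF1A1P9, the elongation factor that delivers aminoacyl-tRNA, was higher in K562 at 1.17 ± 0.23, and RPS14/RPS14P3 at 1.0 ± 0.19, kept in neither line. The other 5 of 7 did not pass, and 1 call was left after either normalization. Olfactory receptor clusters were kept in 2 of 57 in HepG2 and 4 in K562, and 5 (8.77%) were called higher in K562. The called ones included TRIM58/OR2W3/OR2AJ1, whose TRIM58 is a ubiquitin ligase of erythroblasts, at 1.47 ± 0.21. None of the 17 keratin clusters was kept or called. Of 7 protocadherin clusters, PCDHB16/PCDHB2 was lower in K562 at -1.04 ± 0.18, kept in neither line, and 2 were lower after quantile or cyclic loess normalization. Of 19 segmental duplication members, NBPF4/NBPF6/NBPF22P and SERF1A/SERF1B were higher, at 1.83 ± 0.19 and 1.09 ± 0.31, with 1 call left after either normalization. Outside these lists, the POTE ankyrin cluster with SMPD4, RHOQ and RAB6C read 5.42 and 5.22 in HepG2 and 8.25 and 8.57 in K562, a difference of 3.09 ± 0.23; it has 10 symbols and POTEKP stands first among them.

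**Figure D5:**
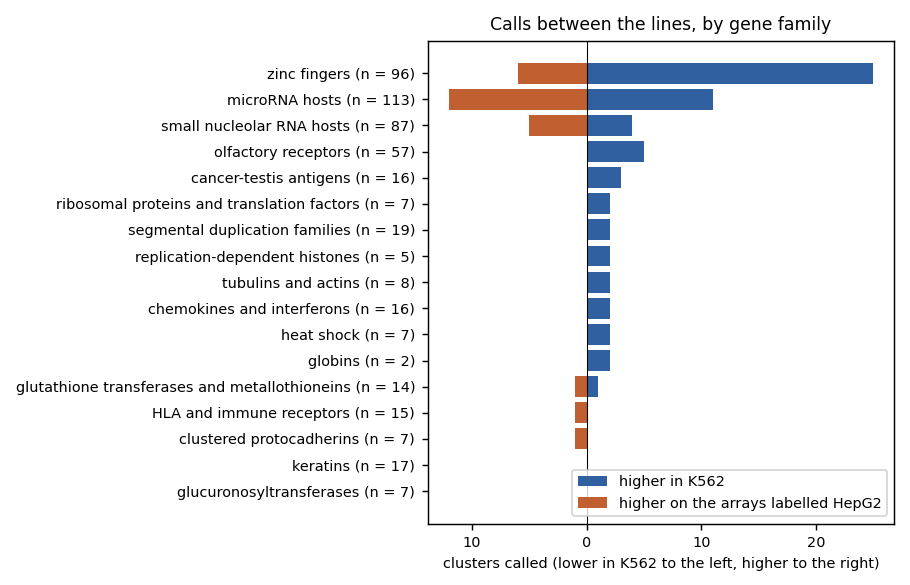
Number of members called between the lines in each gene family list (bars to the right, higher in K562; bars to the left, lower in K562), with the number of members in brackets. Zinc fingers have 25 calls to the right and 6 to the left, and microRNA hosts 11 and 12.

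Clusters that carried the same symbols gave a check of how far a symbol set fixes a value. There were 422 such clusters, forming 208 pairs, with 2 sets of symbols held by 3 clusters each. Across the 47 pairs with both clusters kept in HepG2, the ADARkd minus SCR differences correlated at r = 0.66 (rho = 0.56); without the HSPA1A/HSPA1B pair, which had the largest difference, r was 0.48 over 46. Across 53 pairs in K562 r was 0.38, and across all pairs for the line difference 0.37. The points of a correlation share their arrays, so this is a description. Both clusters of a pair were called between the lines in 7 pairs, all in the same direction, 1 cluster was called in 31, and neither in 170. The 7 included FGF2/NUDT6, a growth factor and its antisense gene, at -2.89 and -1.27, and ACSM3/ERI2 at 1.03 and 3.26. Of the 31, ZNF22/ZNF22-AS1 had differences of 5.06 and 0.76, SLFN11/SLFN13 -3.77 and 0.32, and RFESD/SPATA9 4.76 and 0.74.

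A symbol of a member can also stand alone on another cluster. There were 827 such matches, over 793 members. In the 286 with both clusters kept in HepG2, the ADARkd minus SCR differences correlated at r = 0.12, and in the 238 kept in both lines the line differences correlated at 0.11. Of 34 matches with both clusters called between the lines, 25 had the same direction and 9 opposite ones. The examples that follow were chosen after their values were seen. BTN3A2, a butyrophilin read by gamma-delta T cells, had -2.34 alone and -2.26 in BTN3A2/BTN3A1. FAS, the death receptor, had -2.46 alone and -3.49 in STAMBPL1/FAS. ZNF600 had 2.55 alone and 2.28 and 2.12 in its 2 joint clusters.

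Opposite calls included genes of signalling and metabolism. YAP1, the Hippo pathway coactivator, had -5.18 alone and 1.97 in STXBP5/YAP1. DOCK5, a Rac exchange factor, had -4.42 alone and 1.98 in DOCK2/DOCK5, whose DOCK2 is the haematopoietic member. FAHD1 had -1.26 alone and 4.24 in MEIOB/FAHD1. Within HepG2, CXCL2, a neutrophil chemokine, read 5.97 in SCR and 7.71 in ADARkd alone, while CXCL1/CXCL2 read 5.83 and 5.54. TUBA1B, an alpha-tubulin, read 6.46 and 7.76 in HepG2 and 7.04 and 5.73 in K562 alone, against 9.51 and 9.44, then 10.14 and 10.03, in TUBA1C/TUBA1B. The same symbol thus gave different values in joint and single clusters, and which RNA each cluster read was not tested.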

How the data were processed

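TRIzol-purified total RNA was hybridised to 4 Affymetrix arrays, 1 for each line and arm, after biotin labelling with a whole-transcript kit, per the labels' protocols. The deposited table gives each cluster's intensity, unlogged. The submitters' processing notes name RMA and hg18 without versions. Nothing in the labels says that arrays came from separate cultures. The p-values rest on the residual of the fit to these 4 arrays and on a variance estimated over all clusters. They do not measure a spread between cultures. Probe-level background was not analysed here.

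Log2 was taken without an offset. Symbols came from the platform annotation, and 2349 of the 2408 members had every symbol matched to RefSeq by Entrez number. RefSeq on GRCh38.p14 gave gene types, placements and sequences; no hg18 coordinate is given. Arms of a line were compared as the difference of 2 arrays over kept clusters, without a p-value. For K562 minus HepG2, limma 3.58.1 (R 4.3.3) fitted line and arm on all 17881 clusters, and eBayes used an intensity trend; tests were two-sided with Benjamini-Hochberg adjustment. The shared ADARkd effect was fitted on the 7809 kept in both lines. Both fits left 1 residual degree of freedom. They were also run on simulated arrays whose noise was drawn from limma's fitted variance. Such a run cannot show how well the fits hold for unreplicated arrays.

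The members and gene family lists were chosen with earlier results of these data known. The naming rule took, in each line, 12 members from each end of the differences, the 12 largest calls each way between the lines, 8 each way for the shared effect, the brightest, those with the most symbols, up to 4 of each family list per comparison and both globin clusters. Single-symbol clusters and same-symbol pairs set beside members were chosen after their values were seen. A family needed 2 matching symbols, and a host list 1. A readthrough member was taken as a hyphenated symbol with at least 1 of its parts also annotated. Tables were made with Python 3.11.15 and pandas 2.3.3, and figures with matplotlib 3.10.9.

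Alternatives were quantile and cyclic loess normalization, log2(value + 16), a filter at the 75th percentile, no filter, a filter on the mean of all arrays, eBayes without a trend, treat with a 2-fold bound, each arm alone, and members with several symbols left once non-coding and small RNA symbols were removed.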

Additional observations from a re-analysis of the deposited data

Results flagged for a closer look

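In 15 of the 2408 members the ADARkd minus SCR differences of the lines had opposite signs, each at least 1.5-fold, a bound set after the data were seen. Of these, 4 were kept in both lines, 4 in 1 line and 7 in neither. The same count was not made over all clusters, so whether 15 is many or few for 2408 members is not known. With 1 array per group the difference between the lines could not be fitted with any spread left, and it was not tested. Among those kept in both lines, CCDC144BP/CCDC144A/CCDC144CP/USP32P2 differed by -1.77 in HepG2 and 0.78 in K562. CRIPTO/CRIPTO3, a co-receptor of Nodal and its relative, differed by -0.90 and 0.78, and FRMD8P1/FRMD8 by -0.68 and 0.66. COP1/SCARNA3, a ubiquitin ligase with a small Cajal body RNA, went the other way, at 0.61 and -0.59.

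Among those kept in 1 line, HSD17B7P2/HSD17B7/DDR2/LINC01347/LOC100288069 differed by -2.34 and 1.20 and FAM106A/FAM106C by -0.75 and 0.61. ZNF670/ZNF695 differed by 1.25 and -0.86 and RNF216P1/XKR8/RBAK by 0.83 and -0.88. Of those kept in neither line, MIR31/MIR31HG differed by -1.40 and 0.66, SERF1A/SERF1B by -1.07 and 0.62, NXF2/NXF2B by -0.86 and 1.48 and PSG8/PSG1/PSG3 by -0.73 and 0.81. The tubulin cluster TUBA3E/TUBA3D/TUBA3C differed by 1.47 and -1.24, SSX7/SSX6P by 0.69 and -0.98, and the olfactory receptor cluster OR10G9/OR10G4/OR10G7/OR10G8 by 0.65 and -0.94.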

How the results depend on the processing

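The labels give no replicate numbers to pair arrays by; the fit of line and arm compared the arms within each line, which gave the shared effect. With 1 array per group, none could be left out of a line's comparison. Members 2-fold apart in HepG2 numbered 30 as deposited, 18 with log2(value + 16), 17 with a filter at the 75th percentile and 57 with no filter; in K562 they numbered 4, 1, 0 and 16. Members called between the lines numbered 378, then 250 with log2(value + 16), 84 at the 75th percentile, 230 with a filter on the mean of all arrays and 155 with treat. The filters leave fewer clusters, and the cause was otherwise not tested. These counts stayed within 1.5 times under quantile and cyclic loess normalization. SCR arrays alone gave 409 members 2-fold apart between the lines and ADARkd arrays alone 424. The shared effect had 0 members under every setting run, and 1 of all clusters at the 75th percentile. Among the named values and the counts per family list, 6 list counts moved by over 1.5 times under quantile and 6 under cyclic loess normalization, and 10 with log2(value + 16); no named value changed sign under these settings.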

Other observations

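The 10 members with the highest mean signal, which also depends on their probes, included clusters of chaperones, translation factors and mitochondrial transcripts, and none of the 10 was 2-fold apart between arms or lines. TCP1/SNORA20/SNORA29, a subunit of the cytosolic chaperonin, read 11.37 and 11.48 on the HepG2 SCR and ADARkd arrays and 12.02 and 11.88 in K562. EEF2/SNORD37, the translocation factor of the ribosome, read 11.29 and 10.90, then 10.95 and 10.86, and EIF4G2/SNORD97, a translation initiation factor, 10.61 and 10.91, then 10.62 and 10.64. ND4/ND4L, subunits of respiratory complex I encoded in mitochondrial DNA, read 11.18 on both HepG2 arrays and 10.78 and 10.62 in K562. SH3KBP1/ND3 and COX3/ATP6/ATP8/ATP13A5 join mitochondrial and nuclear genes, and read 11.33 and 11.42 in HepG2 SCR.

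Members with 5 or more symbols numbered 63, and 9 of them were called higher in K562 and 0 lower. The share called was 14.29%, against 15.97% of all clusters, of which 7.18% were higher and 8.79% lower. Most of the 63 were dim, with 25.4% kept in HepG2 and 31.75% in K562. Whether their split into higher and lower calls depended on scaling was not tested. The 4 with the most symbols were not called. The protocadherin alpha cluster with 15 symbols, led by PCDHA12, read 4.61 and 4.64 in HepG2 and 5.25 and 4.97 in K562. The TRIM49 cluster read between 2.43 and 2.88 on the 4 arrays, and the cluster led by NPIPB3 and SMG1 between 6.91 and 7.29. The NBPF cluster led by NBPF11 read 5.44 and 5.54 in HepG2 and 5.98 and 5.27 in K562.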
